A study of Mus musculus with 6 samples.

Results

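Condensin and cohesin are the ring-shaped complexes that shape and hold together mitotic chromosomes. Their core subunits were described here as 10 genes measured by 23 probe sets, out of 12393 genes and 20380 probe sets that name a single gene on the array. The members were taken by gene symbol alone, as every probe set that the platform annotation assigned to 1 of the 10 symbols and to no other gene. Condensin was represented by Smc2, Smc4, Ncapd2, Ncapg and Ncaph with 9 probe sets. Cohesin was represented by Smc1a, Smc3, Rad21, Stag1 and Stag2 with 14. All 10 genes and all 23 probe sets were bright enough for testing, which required 3 or more arrays with a log2 level of 4 or higher.

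Both complexes are built on a pair of long coiled-coil ATPases of the SMC family, whose ends are closed by a kleisin subunit. In condensin I the ATPases are Smc2 and Smc4, the kleisin is Ncaph, and Ncapd2 and Ncapg are its HEAT-repeat subunits; the complex compacts chromosomes as cells enter mitosis. In cohesin the ATPases are Smc1a and Smc3, the kleisin is Rad21, and Stag1 or Stag2 binds to the kleisin. Cohesin holds sister chromatids together until separase cleaves Rad21 at anaphase, and it also forms chromatin loops in interphase, so that non-dividing cells use it too.

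RNA from 6 lines of mouse embryo fibroblasts was measured on 1 array each, after 2 passages and with no treatment that differed between lines. The 3 unstable lines were 2 of genotype BubR1H/H and 1 of genotype CDC20AAA/AAA. The BubR1H/H lines are hypomorphic for a spindle checkpoint protein encoded by Bub1b. The CDC20AAA/AAA line is labelled hypomorphic for the activator of the anaphase-promoting complex. The 3 stable lines were 2 of genotype BubR1+/+ and 1 of genotype CDC20+/+; both genes were labelled wild type in these, CDC20 also in the BubR1H/H lines and BubR1 also in the CDC20AAA/AAA line. The title numbers 9515, 9938 and 10074 each mark 1 unstable and 1 stable line, here called a pair. Pairs 9515 and 9938 are BubR1 pairs and pair 10074 is the CDC20 pair, so that the CDC20 genotype rests on 1 line in each group. No label gives the age of the embryos or says that each line came from an embryo of its own, and p-values therefore measure only the spread between these lines.

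The 6 arrays were alike in overall level, with medians of 6.16 to 6.20 on the log2 scale and 64.2% to 64.7% of probe sets at 4 or above; precision was limited by the number of arrays. The fibroblast genes Col1a2 and Vim lay at 13.09 or above in every line, while Dcn lay at 8.28 to 10.72 and Lum at 6.23 to 7.15. Of the epithelial markers Epcam, Cdh1 and Krt5 lay below 4 in every line, Krt14 reached 4.13, Krt8 reached 4.97 and Krt18 lay at 5.93 to 7.02. Of the endothelial markers Pecam1, Cdh5, Tie1 and Emcn lay below 4 in every line, and Tek and Kdr reached 4.01 and 4.31. All 12 macrophage markers passed the level for testing. Laptm5 ranged from 8.99 to 12.03 and C1qb from 11.05 to 13.53. The unstable minus stable difference of Bub1b was -1.66, -2.08 and -0.62 in pairs 9515, 9938 and 10074, and that of Cdc20 was -0.10, -0.81 and -0.81. Xist was at 10.70 and 11.16 in the lines of pair 9938 and at 2.24 to 2.94 in the others, so that pair 9938 was female and the others were not by this transcript.

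By the brightest probe set of each gene, transcripts of all 5 condensin subunits were lower in the unstable line of every pair. Among the cohesin genes Smc1a was lower and Stag2 higher in every pair, near the shares of all genes given below. Smc3, Rad21 and Stag1 differed in sign between pairs. Over the 5 condensin genes the median difference, unstable minus stable, was -0.48 on the log2 scale. Over the 5 cohesin genes it was -0.14, and over all 8382 genes tested -0.0087. No member passed the limma test across all genes, in which the smallest adjusted p was 0.999 and 0% of genes were called, with 359 genes at an unadjusted p under 0.05. None passed with the pair number as a replicate block either, which again called 0%, with 1019 genes at an unadjusted p under 0.05. The differences below are therefore values with their errors.

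**Figure D1:**
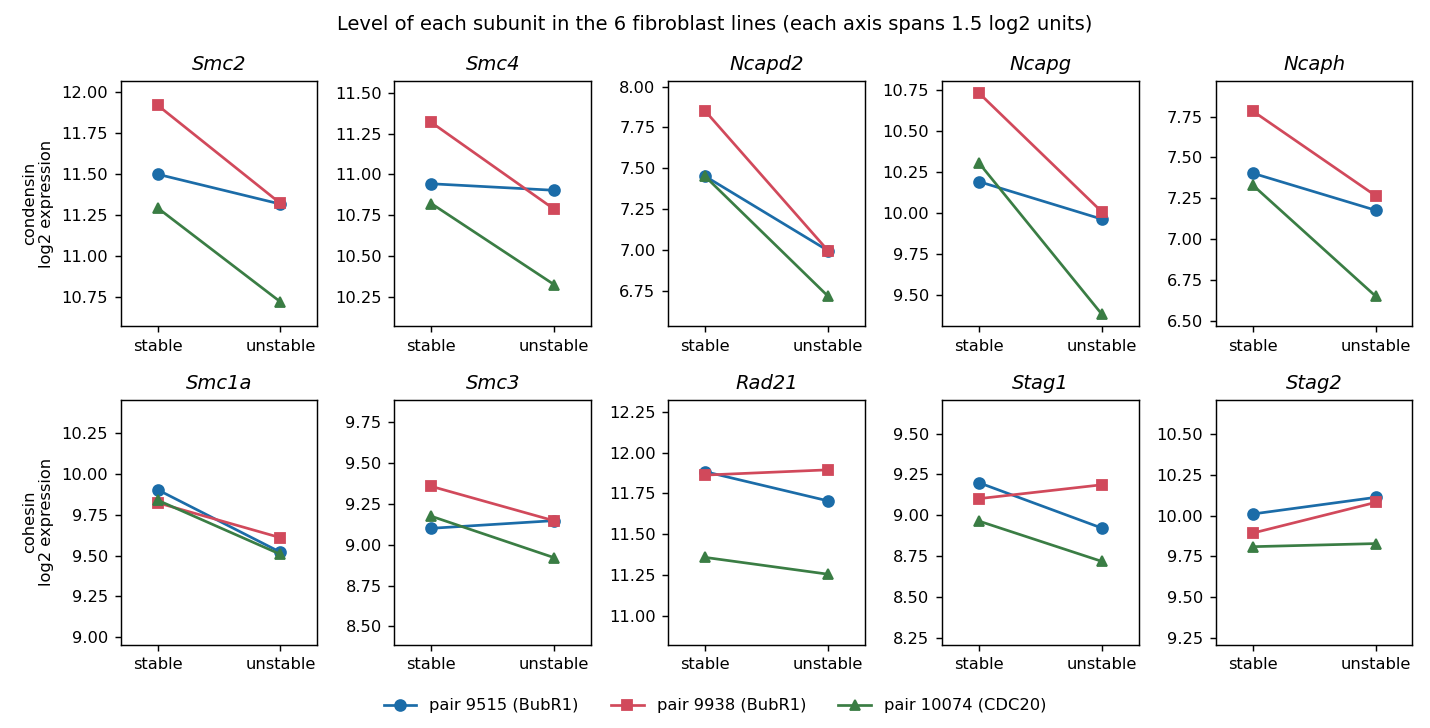
Level of each subunit (log2 expression of the brightest probe set, vertical axis) in the stable and unstable line of each pair, joined by a line. Condensin genes in the upper row slope down in all 3 pairs, while Stag2 in the lower row slopes up in all 3.

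Lower in all 3 pairs were 5 of 5 condensin genes and 1 of 5 cohesin genes, Smc1a, beside 19.3% of all genes tested. Higher in all 3 pairs were 0 of 5 condensin genes and 1 of 5 cohesin genes, Stag2, beside 16.9% of all genes. The 3 unstable lines all lay below the 3 stable lines for Ncapd2, Ncapg, Ncaph and Smc1a, that is for 3 of 5 condensin genes and 1 of 5 cohesin genes, beside 6.41% of all genes. An unadjusted p under 0.05 with a lower level in unstable lines was given by limma for 2 condensin genes and 1 cohesin gene, beside 2.93% of all genes; with the replicate block it was given for 5 and 1, beside 6.92%. The condensin shares of lower genes were above these backgrounds by each measure. The cohesin counts rested on Smc1a in one direction and Stag2 in the other. In all 3 pairs they were 1 of 5 lower and 1 of 5 higher, near the 19.3% and 16.9% of all genes. Of the single probe sets of Smc1a, only the brightest was lower in every pair. These counts hold for the brightest probe sets. With the probe sets of a gene averaged, 4 of 5 cohesin genes were lower in every pair, and the share of all genes under that rule is not given.

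The stretches upstream of 4 members are printed. They are Smc1a, the cohesin gene lower in every pair by its brightest probe set, and 3 condensin genes. These 3 are the condensin genes whose windows held a match to the motifs named below. Ncaph held none and is not printed, so the stretches shown do not stand for condensin as a whole. Each stretch gives the 250 bases before the gene's start, 5′ to 3′ on the gene's own strand, from RefSeq on the build GRCm38.p6. They lie at chr4:52438971-52439220 on the plus strand for Smc2, chr6:125191587-125191836 on the minus strand for Ncapd2, chr5:45669675-45669924 on the plus strand for Ncapg and chrX:152016178-152016427 on the plus strand for Smc1a. Capitals mark matches on either strand to TTTGAA, the core of the cell cycle homology region found in many mitotic genes, to CCAAT, which the factor NF-Y binds, or to TTTCCCGC, TTTGGCGC or TTTCGCGC, which resemble E2F sites.
Smc2: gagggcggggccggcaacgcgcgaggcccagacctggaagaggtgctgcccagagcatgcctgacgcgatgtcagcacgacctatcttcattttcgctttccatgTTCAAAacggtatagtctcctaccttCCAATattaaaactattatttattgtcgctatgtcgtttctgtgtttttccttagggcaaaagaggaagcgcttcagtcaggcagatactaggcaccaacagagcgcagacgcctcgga
Ncapd2: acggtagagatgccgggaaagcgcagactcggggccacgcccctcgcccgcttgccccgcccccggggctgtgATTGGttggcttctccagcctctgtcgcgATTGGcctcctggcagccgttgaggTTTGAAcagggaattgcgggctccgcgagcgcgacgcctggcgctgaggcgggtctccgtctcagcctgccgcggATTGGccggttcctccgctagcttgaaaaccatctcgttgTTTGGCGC
Ncapg: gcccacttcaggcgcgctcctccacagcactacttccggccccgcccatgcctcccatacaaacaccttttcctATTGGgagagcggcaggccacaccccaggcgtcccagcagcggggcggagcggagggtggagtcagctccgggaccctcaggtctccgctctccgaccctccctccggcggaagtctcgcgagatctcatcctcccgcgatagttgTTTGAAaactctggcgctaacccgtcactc
Smc1a: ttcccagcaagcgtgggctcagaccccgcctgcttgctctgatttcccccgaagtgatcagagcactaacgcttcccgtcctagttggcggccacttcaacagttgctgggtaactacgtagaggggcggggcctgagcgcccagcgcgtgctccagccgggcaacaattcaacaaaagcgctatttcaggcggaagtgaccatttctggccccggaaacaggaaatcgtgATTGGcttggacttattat

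The promoter table held 7 of the 10 members, 4 of condensin and 3 of cohesin (Smc1a, Smc3 and Stag1). The search covered 300 bases, the 250 shown and the first 50 of the gene, and no matches overlapped. TTTGAA was present in 3 of the 4 condensin windows, Smc2, Ncapd2 and Ncapg, and in 0 of the 3 cohesin windows, beside 17.9% of 32851 windows in the table. In Ncapg it lay at -30 to -25, in Ncapd2 at -123 to -118, and in Smc2 at -145 to -140 and again at 27 to 32, counted from the start. CCAAT was present in the same 3 condensin windows and in those of Smc1a and Stag1, beside 37.4% of all windows, and Ncapd2 held 3 copies. TTTGGCGC lay at -8 to -1 in Ncapd2, beside 0.514% of all windows. TTTCCCGC was found in Ncapg, Smc1a and Stag1, beside 1.07%, and TTTCGCGC in 0 of 7, beside 0.323%. The windows of Ncaph and Smc3 held no match. The motif matches are matches of letters, and neither binding nor a link to the differences in level was tested.

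The ATPase gene Smc2 measured 11.50, 11.92 and 11.29 in the stable lines of pairs 9515, 9938 and 10074, and 11.32, 11.32 and 10.72 in the unstable lines. Each unstable line was below its partner, but the groups overlapped, since the unstable lines of the BubR1 pairs were above the stable CDC20+/+ line. The mean difference was -0.45 (SE 0.23; adjusted p = 0.999 by limma). Its partner Smc4 measured 10.94, 11.32 and 10.82 in stable and 10.90, 10.79 and 10.33 in unstable lines in the same order. Pair 9515 hardly differed, at -0.04, while the other pairs differed by -0.53 and -0.50. The mean difference was -0.36 (SE 0.20). Without the CDC20AAA/AAA line the differences were -0.25 for Smc2 and -0.18 for Smc4, and without the stable line of pair 9938 they were -0.28 and -0.21.

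The HEAT-repeat subunit gene Ncapd2 showed the largest difference of the 10 genes. Its levels were 7.45, 7.85 and 7.45 in stable and 7.00, 7.00 and 6.72 in unstable lines of pairs 9515, 9938 and 10074, with a gap between the groups. Unstable lines were 1.60-fold lower, with a difference of -0.68 (SE 0.15), a 95% interval of -1.06 to -0.31 and an unadjusted p of 0.0041 by limma (adjusted p = 0.999); with the replicate block the adjusted p was 0.262, a value that 82 genes shared as the smallest of that fit. The other HEAT-repeat subunit gene, Ncapg, measured 10.19, 10.74 and 10.31 in stable and 9.96, 10.01 and 9.38 in unstable lines. The groups did not overlap, and the difference was -0.63 (SE 0.23), or 1.55-fold lower. It was largest in the CDC20 pair, at -0.93, against -0.23 and -0.73 in pairs 9515 and 9938.

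The kleisin gene Ncaph measured 7.40, 7.79 and 7.33 in stable and 7.18, 7.27 and 6.65 in unstable lines. Again the groups did not overlap, although the highest unstable and the lowest stable line were close. The difference was -0.48 (SE 0.21), and -0.29 without the CDC20AAA/AAA line. For all 5 condensin genes the stable line of pair 9938 was the highest of the 6 lines and the unstable CDC20AAA/AAA line the lowest. Without the CDC20AAA/AAA line the condensin median shrank from -0.48 to -0.29, and without the stable line of pair 9938 to -0.34.

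Among the cohesin genes Smc1a, an X-linked ATPase gene, had the largest difference by its brightest probe set. It measured 9.90, 9.82 and 9.84 in stable and 9.52, 9.61 and 9.51 in unstable lines of pairs 9515, 9938 and 10074. The lines of each group lay close together and the groups did not overlap. The difference was -0.31 (SE 0.084), with a 95% interval of -0.51 to -0.11 and an unadjusted p of 0.0099 by limma (adjusted p = 0.999). When its 3 probe sets were averaged, the difference was -0.30 and the unadjusted p was 0.097.

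Smc3, the other cohesin ATPase gene, measured 9.10, 9.36 and 9.18 in stable and 9.15, 9.15 and 8.92 in unstable lines, with overlapping groups and a difference of -0.14 (SE 0.12). It was -0.064 without the CDC20AAA/AAA line, -0.066 without the stable line of pair 9938 and -0.23 without pair 9515. The kleisin gene Rad21 measured 11.88, 11.86 and 11.36 in stable and 11.70, 11.89 and 11.26 in unstable lines. Here the pairs differed more than the groups: both lines of the CDC20 pair were below the other 4. The difference was -0.083, with a 95% interval of -0.62 to 0.46 that spans the differences of Smc2, Smc4 and Ncaph but not those of Ncapd2 and Ncapg. With the pair number as a replicate block the interval was -0.31 to 0.14, and the differences of all 5 condensin genes lay outside it. Those differences have errors of their own. With the block the intervals of Smc2, Smc4, Ncapg and Ncaph overlapped that of Rad21, for example -0.69 to -0.027 for Smc4. The interval of Ncapd2, -0.96 to -0.40, did not. Rad21 was not tested against the condensin genes. Without the CDC20AAA/AAA line the Rad21 difference was 0.098, and without the stable line of pair 10074 it was -0.25.

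The alternative subunits Stag1 and Stag2 had mean differences of opposite sign by their brightest probe sets. Stag1 measured 9.20, 9.10 and 8.96 in stable and 8.92, 9.19 and 8.72 in unstable lines, with a difference of -0.15 (SE 0.15). X-linked Stag2 measured 10.01, 9.89 and 9.81 in stable and 10.11, 10.08 and 9.83 in unstable lines, with a difference of 0.10 (SE 0.12) and a 95% interval of -0.18 to 0.39. For both genes the groups overlapped. With lines or pairs left out, Stag1 ranged from -0.035, without the CDC20AAA/AAA line, to -0.27, without the unstable line of pair 9938. Stag2 ranged from 0.051, without the unstable line of pair 9515, to 0.19, without the CDC20AAA/AAA line. By the brightest probe sets, the difference of Stag2 minus that of Stag1 was 0.38, 0.10 and 0.27 in pairs 9515, 9938 and 10074. Other probe sets changed that order. In pair 9515 Stag1 probe sets 1450420_at and 1421940_at were at 0.17 and 0.15, above both of Stag2, at 0.10 and 0.046. In pair 10074 1421940_at was at 0.067, above the brightest of Stag2 at 0.019. In pair 9938 both Stag2 probe sets were above every Stag1 probe set. No test was made of the contrast between Stag1 and Stag2.

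**Figure D2:**
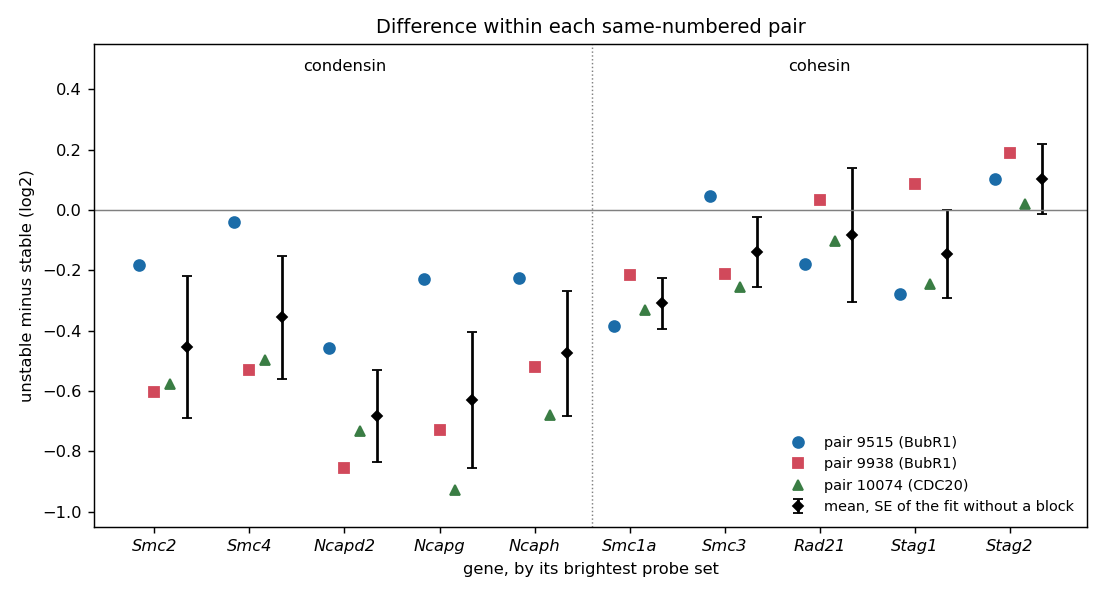
Unstable minus stable difference (log2, vertical axis) of each gene in each pair, with the mean and the standard error of the limma fit without a block in black. All 15 condensin points lie below 0, from -0.93 to -0.04, and cohesin points lie from -0.38 to 0.19.

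Set side by side, the families differed most in pairs 9938 and 10074. The median condensin difference was -0.23, -0.60 and -0.68 in pairs 9515, 9938 and 10074, and the median cohesin difference was -0.18, 0.03 and -0.25. The mean over condensin genes minus the mean over cohesin genes was -0.089, -0.62 and -0.50, on average -0.40 with an SD of 0.28 over the 3 pairs. In pair 9515 the families therefore hardly differed, and the ranges of their members overlapped, from -0.46 to -0.04 for condensin and from -0.38 to 0.10 for cohesin. In pair 9938 the ranges were -0.86 to -0.52 and -0.21 to 0.19, and in pair 10074 they were -0.93 to -0.50 and -0.33 to 0.02, without overlap in either. Over all probe sets the families did overlap, with -1.24 to -0.27 for condensin and -0.91 to 0.28 for cohesin in pair 9938, and -0.93 to -0.33 and -0.37 to 0.10 in pair 10074. Because the members were chosen as families with earlier results known, no p-value was computed for this contrast.

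By array, the condensin genes, each centred on its mean over the 6 lines, averaged 0.14, 0.56 and 0.080 in the stable lines of pairs 9515, 9938 and 10074 and -0.090, -0.086 and -0.60 in the unstable lines. The stable line of pair 9938 and the CDC20AAA/AAA line stood farthest from the middle, and the other 4 lay within 0.14 of it. The same averages of the cohesin genes were 0.12, 0.11 and -0.065 in stable and -0.013, 0.089 and -0.25 in unstable lines. For cohesin the CDC20AAA/AAA line was again the lowest, but the stable line of pair 9938 did not stand apart.

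Genes with several probe sets allowed the differences to be read more than once. All 9 condensin probe sets were lower in all 3 pairs, with mean differences of -0.70 to -0.27. Smc2 and Ncapd2 had no further probe set, so they were read once. The pair for Ncapg gave -0.63 and -0.70, and the 3 of Smc4 gave -0.27, -0.46 and -0.36. Of the 14 cohesin probe sets 2 were lower in all 3 pairs, the brightest of Smc1a and the dimmer of Smc3. Mean differences of cohesin probe sets ranged from -0.31 to 0.13. The share of all probe sets lower in all 3 pairs is not given. By the brightest probe set it was 19.3% of all genes tested. Both Stag2 probe sets were higher in all 3 pairs, at 0.10 and 0.13 on average.

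Cohesin probe sets of 1 gene disagreed mainly in pair 9938. For Smc1a the differences there were -0.21, -0.64 and -0.91, against -0.38, 0.067 and 0.11 in pair 9515, for probe sets 1417830_at, 1417831_at and 1417832_at. For Rad21, probe set 1416162_at was at -0.64 in pair 9938 while 1416161_at and 1455938_x_at were at 0.08 and 0.03. For Stag1, 1450420_at was at -0.59 while the brightest, 1431921_a_at, was at 0.09. In these cases the stable line of pair 9938 was the highest of the 6, for example 9.13 for 1417832_at against 8.01 to 8.27 in the other lines. With the probe sets of a gene averaged, 4 of 5 cohesin genes were lower in all 3 pairs, against 1 by the brightest. The share of all genes under the averaging rule is not given, so that count has no background beside it. In single pairs the direction of Smc1a, Smc3, Rad21 and Stag1 depends on the probe set. Over all genes with several probe sets, a dimmer probe set differed from the brightest by less than -0.5 in 5.90% of cases in pair 9938, against 2.31% and 2.07% in pairs 9515 and 10074.

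**Figure D3:**
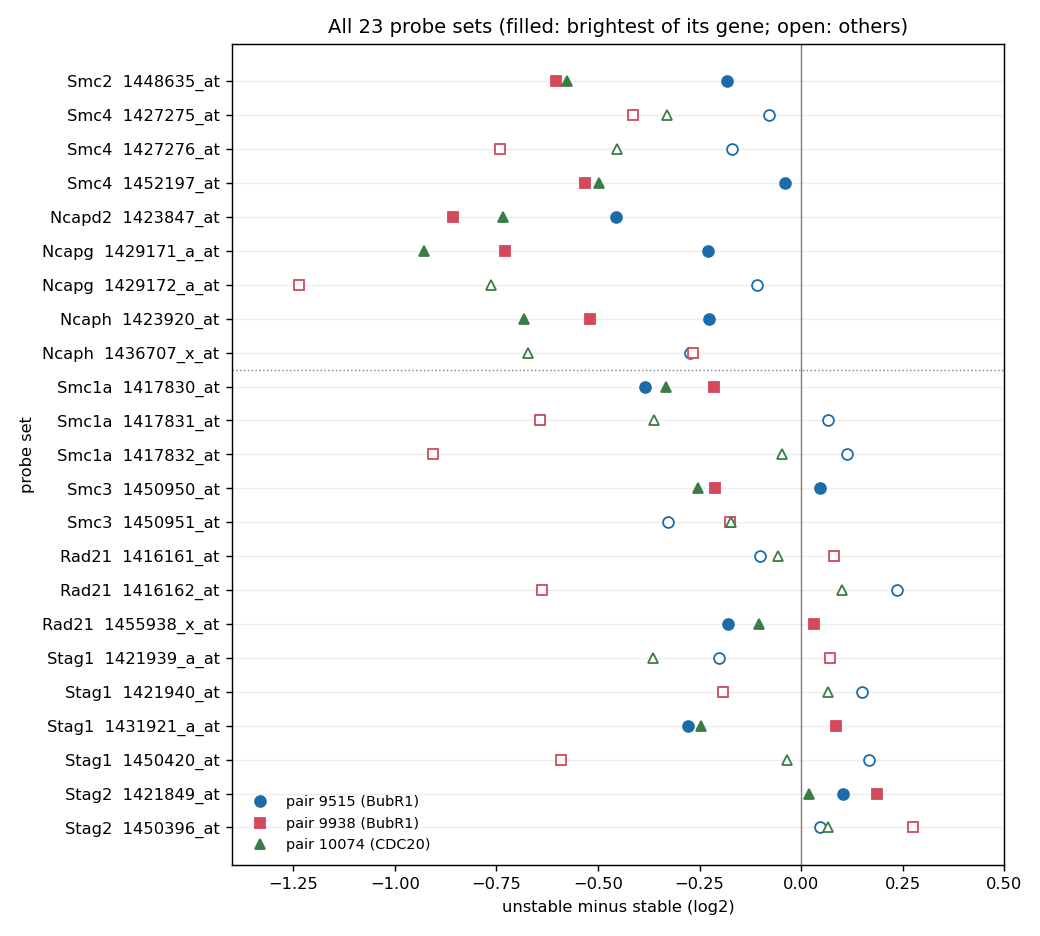
Unstable minus stable difference (log2, horizontal axis) of every condensin and cohesin probe set in each pair; filled symbols mark the brightest probe set of a gene and open symbols the others. All condensin probe sets lie left of 0, and among cohesin probe sets the open squares of pair 9938 lie far to the left for Smc1a, Rad21 and Stag1.

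The difference was also compared between genotypes, CDC20 pair against BubR1 pairs. Of all genes 0% were called in this comparison by limma, with 133 genes at an unadjusted p under 0.05. Ncapg had the largest such difference among the members, -0.45 (SE 0.38; adjusted p = 1.00 by limma), and Ncaph followed at -0.31 (SE 0.30). By the brightest probe set, all 10 members had a lower unstable minus stable difference in the CDC20 pair than the mean of the BubR1 pairs. The same held for 55.4% of all genes. Rad21 and Smc1a were near 0, at -0.03 and -0.03. Some dimmer probe sets went the other way. For Smc1a, 1417832_at was at -0.047 in the CDC20 pair, against 0.11 and -0.91 in pairs 9515 and 9938. For Rad21, 1416162_at was at 0.10, against 0.24 and -0.64. No member passed the test, and 1 pair stands on the CDC20 side.

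Other genes of chromosome structure were read from the same fit, in which 0 members of any list passed. Of all genes 52.1% were lower over the group means, against which the counts of genes lower on average are to be read. The mitotic partners of condensin that were tested were all lower, 10 of 10, with a median of -0.47. Of the 10, 9 were lower in all 3 pairs, beside 19.3% of all genes. Top2a, the topoisomerase that untangles sister DNA, differed by -0.56 (SE 0.18), the mitotic kinase gene Cdk1 by -0.41 (SE 0.15), Mki67, which coats mitotic chromosomes, by -0.57 (SE 0.24), and Birc5 of the chromosomal passenger complex by -0.42 (SE 0.19). Of the subunits particular to condensin II, Ncapg2 was lower in all 3 pairs, at -0.41 (SE 0.26), but by only -0.011 in pair 9515. Ncaph2 differed by -0.032 (SE 0.11), and Ncapd3 was not tested.

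The regulators of cohesin that were tested followed no single direction. Of 7 genes tested for cohesin release, protection and cleavage, 6 were lower on average, with a median of -0.060. In all 3 pairs 2 were lower, near the 19.3% of all genes. Wapl, Pds5b, Sgo2a and Espl1 of that list were not tested. Cdca5, which encodes the cohesion-maintaining factor sororin, differed by -0.49 (SE 0.25), Sgo1, the centromeric protector shugoshin, by -0.66 (SE 0.35), the kinase gene Plk1 by -0.61 (SE 0.43) and the securin gene Pttg1 by 0.16 (SE 0.16). The loader genes Nipbl and Mau2 and the acetyltransferase gene Esco1 differed by 0.09, 0.14 and 0.07. Esco2, Hdac8 and Ddx11 of the same list were not tested. The Smc5/6 complex, the remaining SMC complex, had 5 of 6 genes lower on average but 1 in all 3 pairs, with a median of -0.049; Nsmce4a was at -0.21 (SE 0.11) and Smc5 at 0.19 (SE 0.18). Among the loop partners of cohesin 3 of 4 genes were lower, with a median of -0.12, and Ctcf, the boundary factor at which cohesin stops, was at -0.19 (SE 0.15). The meiotic subunit genes Smc1b, Rec8 and Stag3 lay below 4 in every line, between 2.27 and 3.37.

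A list of 20 replication and mitosis genes, of which 19 were tested and Tyms was not, served as a reference for dividing cells. All 19 were lower in all 3 pairs, beside 19.3% of all genes. Their medians were -0.22, -0.70 and -0.68 in pairs 9515, 9938 and 10074, near the condensin medians of -0.23, -0.60 and -0.68. Examples are the transcription factor gene Foxm1 at -0.74 (SE 0.20) and the replicative helicase gene Mcm5 at -0.73 (SE 0.23). The mean condensin difference minus the mean of that list was 0.00075, -0.043 and -0.060 in the same pairs, whereas for cohesin it was 0.09, 0.58 and 0.44. In RNA from whole cultures, fewer dividing cells and less RNA per dividing cell cannot be told apart.

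**Figure D4:**
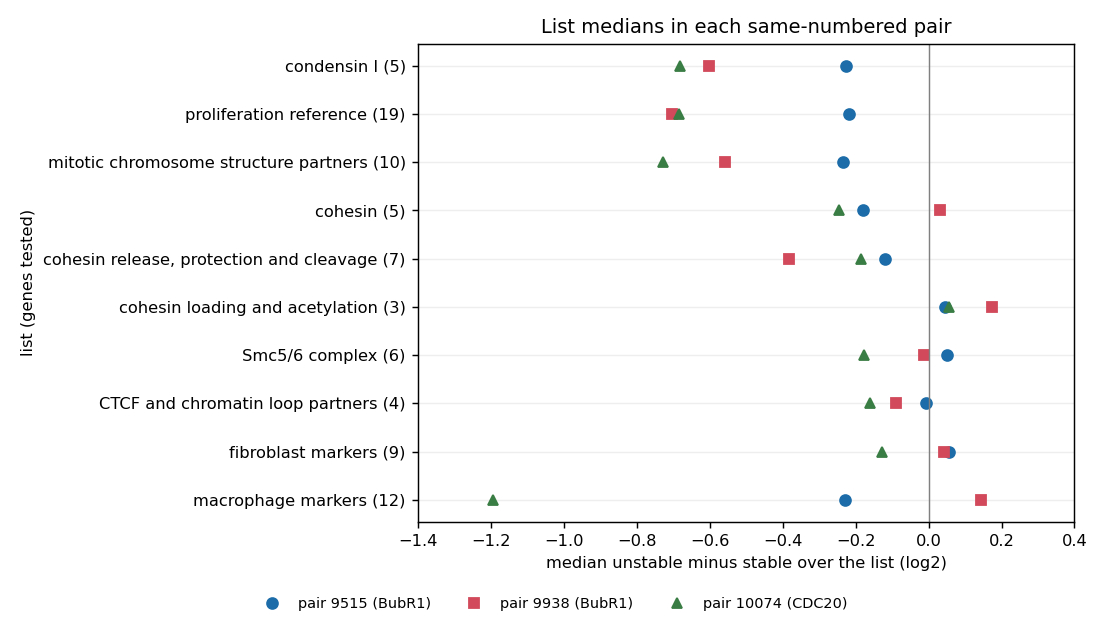
Median unstable minus stable difference (log2, horizontal axis) of each list shown, in each pair, with the number of genes tested in brackets. Condensin, the reference list of dividing cells and the mitotic partners lie together, between -0.73 and -0.22, while cohesin lies between -0.25 and 0.03.

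Of the markers of other cells, all 12 of the macrophage list were lower over the group means but only 2 in all 3 pairs. Their pair medians were -0.23, 0.14 and -1.20, and their summed level, as log2 of the sum, ranged from 12.9 to 14.8 in stable and from 12.4 to 14.8 in unstable lines, and every marker but Aif1 was at 4 or above in every line. In pair 9938 the macrophage median was above 0 while the condensin median was -0.60; in the CDC20 pair both were low, and the part of macrophages there was not tested. The 9 fibroblast markers tested had a median of 0.001, with pair medians of 0.06, 0.04 and -0.13. Of the endothelial, epithelial and skeletal muscle markers 1, 2 and 2 were bright enough to test, with medians of 0.10, -0.048 and 0.17.

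Genes outside both families with the most similar levels were found by the root-mean-square distance, over the 6 lines, between their centred log2 values and the family average. Among 6974 genes with a mean of at least 6, the nearest to condensin were Uhrf1 at 0.067, Blm at 0.068, Birc5 at 0.072, Asf1b at 0.072 and Ezh2 at 0.073 log2 units, beside a median distance of 0.38. Uhrf1 differed by -0.22, -0.48 and -0.63 in pairs 9515, 9938 and 10074. The nearest to cohesin were Ccdc22, Snx12, Cibar1, Fam76b and Ahsa2, at 0.035 to 0.036 beside a median of 0.20. Their differences were -0.16 to -0.08 on average. Both sets of genes were picked for closeness over the same 6 lines, so their differences follow from the choice and are no further result. The condensin genes themselves lay 0.040 to 0.12 from their own average, of which each is a part, and 0.20 to 0.32 from that of cohesin. Ncaph was the nearest to the condensin average and Ncapd2 the farthest.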

How the data were processed

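The authors deposited 1 table of log2 values for 6 arrays, made, per the submitters' processing notes, with R 2.15.3 and GCRMA 2.28.0, which corrects background, equalizes arrays and summarizes probe sets; overall differences in brightness are thereby removed. The values were used as given. Of 22626 probe sets, 20380 had 1 symbol in the platform annotation. A gene was represented by its brightest probe set, and 8382 of 12393 genes, those at log2 4 or higher on 3 or more arrays, were tested. Unstable and stable lines were compared with limma 3.58.1 in R 4.3.3 (lmFit, eBayes, two-sided, Benjamini-Hochberg over all genes, threshold 0.05), without a block; fits were tested on simulated data. An exact permutation test of 3 against 3 cannot go below 0.1 and was not used. Deviations from the group mean correlated between lines that share a title number (0.812, 0.681 and 0.602 over genes), so the title numbers were taken as pairs. Members and lists were chosen with earlier results of these data known. Named were all members, up to 4 genes of each list by p, and Bub1b and Cdc20 (difference -0.57, SE 0.20). The 5 nearest profiles of each family were named too. Col1a2, Vim, Lum, Aif1, Xist and the epithelial and endothelial markers were named outside this rule, after their values were seen. Alternatives were other filters, probe-set rules, normalizations, priors, weights, the block and leaving out lines.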

Additional observations from a re-analysis of the deposited data

How the results depend on the processing

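No member passed the limma test under any alternative run; the smallest adjusted p of a member was 0.262, for Ncapd2 with the pair number as a replicate block, a fit in which 82 genes share it, and 0 genes were called with the replicate block as in the fit without it. The difference between the CDC20 and BubR1 effects called 0 genes in each alternative run. All 5 condensin genes kept their direction throughout, and their median ranged from -0.60 to -0.29 when a line or pair was left out. The cohesin median of -0.14 was -0.22 when the unstable 9938 line was left out, -0.035 for the CDC20AAA/AAA line, -0.066 for the stable 9938 line, -0.091 for the stable 9515 line, -0.081 for pair 9515 and -0.082 for pair 10074. Condensin minus cohesin ranged from -0.56, leaving out pair 9515, to -0.28, leaving out the stable 9938 line. Rad21 ranged from -0.25 to 0.098; it was above 0 without the stable line of pair 9515 (0.0077) and without the CDC20AAA/AAA line, and the cause was not tested. Cohesin genes lower in every pair numbered 4 when all probe sets of a gene were averaged, which brings in dimmer ones. They numbered 1 to 3 when a pair was left out, where only the remaining pairs had to be lower, a looser condition. The shares of all genes under these rules are not given. Leaving out a single line gives no further value for the count of cohesin genes lower in every pair. Over probe sets that count was 2 of 14, and the share of all probe sets is not given either. Dim probe sets are limited by background.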
